A study of Mus musculus with 12 samples.

Results

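The simple epithelial keratins examined here are Krt7, Krt8, Krt18, Krt19, Krt20 and Krt23, the 6 rows of the gene count table, out of 53599, whose symbol is one of these names. They were followed through sorted mouse liver cells that represent steps in the conversion of hepatocytes into biliary cells. The mice were labelled WT and carried an EGFP lineage label that AAV8-TBG-Cre, a virus driving Cre recombinase from a hepatocyte promoter, switched on in hepatocytes. From 1 week after the injection they ate a diet with 0.1% DDC (3,5-diethoxycarbonyl-1,4-dihydrocollidine), a compound that injures bile ducts, for 8 weeks, so that all 4 groups come from injured livers and no uninjured group was used here. The early group was EGFP+ Cd24- Epcam-, the intermediate group EGFP+ Cd24+ Epcam-, and the full group EGFP+ Cd24+ Epcam+. The fourth group, BEC, was EGFP- Epcam+ and holds the resident biliary epithelial cells. As EGFP- cells, BEC carry no hepatocyte label, so full against BEC compares separate groups and does not follow cells along the conversion. Where it is counted as the third or last step, or called a rise or fall, only this difference is meant. Each group had 3 libraries, and the labels give no age, sex or number of animals. Since nothing says that replicates came from separate animals, p-values measure the spread between these libraries, which may be partly technical.

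Keratins build the intermediate filaments of epithelial cells, and each filament needs a type I keratin paired with a type II keratin. Krt7 and Krt8 are type II, and Krt18, Krt19, Krt20 and Krt23 are type I. Healthy adult hepatocytes are known for a filament network of Krt8 and Krt18 alone, bile duct cells add Krt7 and Krt19, Krt20 is best known from gut and urinary tract epithelium, and Krt23 is described as inducible in injured liver. DDC is also a classic inducer of hepatocyte inclusions, called Mallory-Denk bodies, made of Krt8 and Krt18 with ubiquitin and Sqstm1.

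Total counts ran from 15112893 to 19731887 per library. Levels are given as CPM, counts relative to library size, scaled by TMM factors, which adjust each library for a few genes taking up many of its reads. A level of 3 counts, used as a floor, corresponds to between 0.128 and 0.273 CPM. The mitochondrial share was 5.45% to 11.4% in early libraries and 2.20% to 4.75% in the others. The groups carried the markers of their labels. The summed CPM of 10 hepatocyte markers lay between 98821 and 103539 in early, 15069 and 19664 in intermediate, 3345 and 4390 in full and 2052 and 2719 in BEC, and the sum of 11 biliary markers was between 981 and 1970 in early and between 9324 and 17053 in the other groups. Most of the biliary sum was Spp1, with means of 1237 CPM in early, 9866 in intermediate, 11316 in full and 12144 in BEC. Of the 11 biliary markers, 10 were called higher in BEC than in early, beside 40.0% of all genes tested. Aqp1 did not follow, with means of 4.79, 5.02, 1.73 and 2.81 CPM in the same order of groups. In bulk RNA, fewer cells of a type and less RNA per cell cannot be told apart.

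The promoters of the keratins were read from RefSeq, build GRCm38.p6, as the 250 bases before the annotated start, where 5 of the 6 keratins had an entry and Krt19 had none. Because the submitters' processing notes name GRCm39, these coordinates belong to GRCm38.p6 and not to the counts. The sequences of Krt8, Krt7 and Krt20 are shown because these genes followed 3 different courses. They lie at chr15:102004343-102004592 on the minus strand (Krt8), chr15:101412153-101412402 on the plus strand (Krt7) and chr11:99438154-99438403 on the minus strand (Krt20). Each runs 5′ to 3′ in the direction of the gene, and capitals mark matches to 6 searched motifs.
Krt8: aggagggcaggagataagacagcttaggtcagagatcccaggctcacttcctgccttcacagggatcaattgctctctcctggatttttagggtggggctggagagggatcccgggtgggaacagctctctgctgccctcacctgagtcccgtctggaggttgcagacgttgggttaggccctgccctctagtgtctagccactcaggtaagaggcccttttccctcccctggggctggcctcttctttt
Krt7: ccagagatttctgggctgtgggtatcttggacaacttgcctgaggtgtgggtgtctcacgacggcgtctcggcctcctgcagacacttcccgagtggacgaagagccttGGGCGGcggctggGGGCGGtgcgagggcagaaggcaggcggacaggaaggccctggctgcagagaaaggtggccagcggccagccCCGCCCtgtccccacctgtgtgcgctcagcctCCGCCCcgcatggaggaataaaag
Krt20: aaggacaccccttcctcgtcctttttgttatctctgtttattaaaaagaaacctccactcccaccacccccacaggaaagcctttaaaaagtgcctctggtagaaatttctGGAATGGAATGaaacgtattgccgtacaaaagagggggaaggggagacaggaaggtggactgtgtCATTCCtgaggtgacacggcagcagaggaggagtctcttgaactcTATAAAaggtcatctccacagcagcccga

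Both strands were searched for the letters TATAAA of the TATA box, the letters GGGCGG of the GC box, the CCAAT box by the letters in its name, and TGANTCA for factors of the AP-1 family. Further searches used GGAATG for factors of the TEAD family and ACAATG for those of the SOX family. Krt7 held 4 GC boxes, which began 141, 128, 56 and 24 bases before the start. GC boxes were found in 32.7% of 32851 promoters of this length. Krt20 held a TATA box 29 bases before the start and 3 TEAD matches, at 139, 134 and 74 bases, of which the first pair overlap. TATA boxes were found in 12.4% and TEAD matches in 12.6% of promoters. Krt23 held a SOX match 90 bases before its start, a motif found in 10.7% of promoters. In Krt8 and Krt18 none of these letters were found, nor was a CCAAT box (33.8% of promoters) or an AP-1 match (6.75%) in any of the 5. These matches describe sequence only.

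Krt8 and Krt18, the pair that forms the hepatocyte filament, were the most abundant keratins in every library. Krt8 stood at 4084, 3318 and 3354 CPM in early replicates 1 to 3, at 2344, 3096 and 2986 in intermediate, at 1762, 2141 and 2205 in full and at 1944, 2400 and 2596 in BEC. All early libraries lay above all others, all full libraries lay below all intermediate ones, and BEC overlapped with both. Krt18 stood at 2234, 2085 and 2194 CPM in early, at 1486, 1713 and 1802 in intermediate, at 1300.2, 1506 and 1627 in full and at 1179.5, 1448 and 1498 in BEC. Early was again above every other library, and the other 3 groups overlapped with their neighbours.

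On the TMM scale, Krt18 fell from early to intermediate by 0.38 on the log2 scale (SE 0.13, edgeR's quasi-likelihood test, Benjamini-Hochberg adjusted p 0.0195). Without intermediate replicate 1 this was -0.30 with an edgeR adjusted p of 0.0928, the highest of a range from 0.00192 over its alternatives other than a minimum fold change. Krt8 had a log2 fold change of -0.35 at the same step and was not called (SE 0.15, edgeR adjusted p 0.0657), while 4 alternatives, DESeq2 and the replicate block among them, called it (adjusted p from 0.0240 to 0.254 over its alternatives other than a minimum fold change). Krt8 then fell from intermediate to full by 0.46 (SE 0.15, edgeR adjusted p 0.0260). Leaving out intermediate replicate 2 (edgeR adjusted p 0.104), intermediate replicate 3 (0.0794) or full replicate 1 (0.105) ended this call. Scaling by total counts also ended it (-0.26, edgeR adjusted p 0.173), as did the test against a minimum 2-fold change. Over the other alternatives the adjusted p went down to 0.00356. Krt18 at that step (-0.17, SE 0.13, edgeR adjusted p 0.293), and both genes between full and BEC (Krt8 0.18, SE 0.15; Krt18 -0.10, SE 0.12), were not called. Against early, BEC was lower in Krt8 (-0.63, edgeR adjusted p 0.00196) and Krt18 (-0.66, edgeR adjusted p 0.000307).

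The direction of Krt8 and Krt18 against early depended on the scaling. Scaling by total counts alone moved the median gene by 0.66 on the log2 scale for intermediate and 0.86 for BEC, and then Krt8 was 0.31 (edgeR adjusted p 0.0762) and Krt18 0.28 (0.0544) in intermediate against early. In BEC against early they were 0.24 (edgeR adjusted p 0.155) and 0.21 (0.130). In full against early, Krt8 went from -0.82 to 0.05, and Krt18 from -0.55 to 0.31, the latter called higher (edgeR adjusted p 0.0313). All these values lay below the median gene of their fit. Counts for Krt8 could also include reads of the pseudogene Krt8-ps (71 to 111 counts per library against 36486 to 56818 for Krt8) or of Gm36026, which overlaps Krt8 on the opposite strand (5 to 38 counts).

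**Figure D1:**
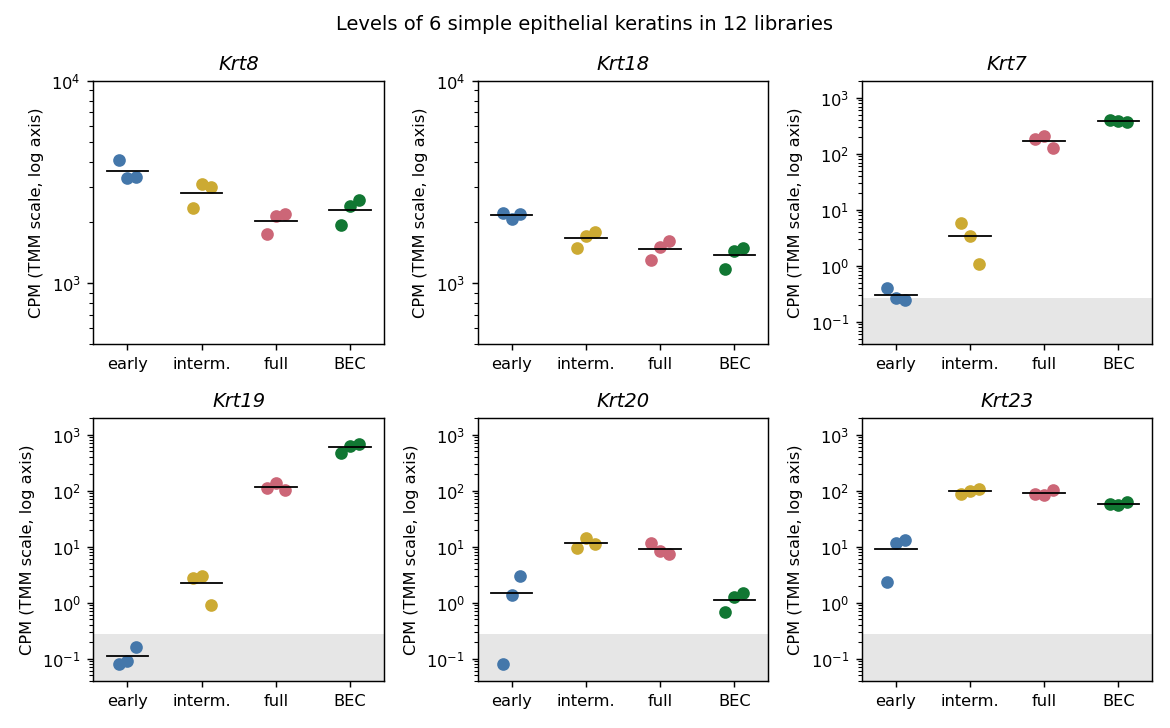
Level of each keratin in the 12 libraries, in CPM on a log axis, with replicates 1 to 3 from left to right in each group and a line at the mean. The grey band marks levels at or under 3 counts in the library with the highest such floor, and axis ranges differ between panels. Krt8 and Krt18 lie above 1000 CPM in all 12 libraries, Krt7 and Krt19 climb from the floor to BEC, Krt20 is high in intermediate and full alone, and Krt23 is lowest in early.

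Krt7 and Krt19, the keratins that mark bile duct epithelium, were nearly absent from early cells. They rose from early to intermediate and from intermediate to full, and were higher still in BEC. Krt7 had 0.395, 0.273 and 0.243 CPM in early, which are 5, 3 and 3 counts. It had 5.85, 3.40 and 1.08 CPM in intermediate, 184, 206 and 127 in full and 397, 393 and 373 in BEC. The 4 groups did not overlap, and the intermediate libraries were spread most widely for their level. Krt19 had 0.0791, 0.0909 and 0.162 CPM in early, which are 1, 1 and 2 counts. It had 2.77, 2.96 and 0.906 CPM in intermediate, 113, 139 and 102 in full and 474, 629.8 and 673 in BEC. The groups again did not overlap, and intermediate replicate 3 was the lowest intermediate library for both genes, as it was for Epcam (12.4 CPM against 26.7 and 17.4).

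By the counts summed over each group and divided by its summed TMM-scaled library sizes, intermediate was 11.0-fold higher than early in Krt7 (95% interval from counting error alone 5.99 to 22.4) and 19.8-fold higher in Krt19 (7.52 to 73.9). Both were called (edgeR adjusted p 0.000649 and 0.000124). Both calls also held without intermediate replicate 1, the highest intermediate library for Krt7, which moved the fitted log2 fold change of Krt7 from 3.45 to 2.86 at this step and from 5.66 to 6.25 at the next. The step from intermediate to full had the larger fold in both genes, a difference between steps that was not tested. Krt7 rose there by 5.66 on the log2 scale (SE 0.36, edgeR adjusted p 1.01e-07), and Krt19 by 5.74 (SE 0.29, edgeR adjusted p 1.98e-08). BEC was higher than full in Krt19 by 2.33 (SE 0.22, edgeR adjusted p 5.08e-06) and in Krt7 by 1.17 (SE 0.28, edgeR adjusted p 0.00708). The Krt7 call in that comparison was lost in DESeq2 (1.18, adjusted p 0.0737, the highest of its alternatives other than a minimum 2-fold change). From early to BEC the ratio, computed in the same way, was 1268 for Krt7 (708 to 2540) and 5349 for Krt19 (2089 to 19632), with intervals for counting error only.

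The balance of the pair differed between full and BEC. The ratio of Krt19 to Krt7 counts was 0.698 ± 0.0973 in full (SD, n = 3, range 0.615 to 0.805) and 1.53 ± 0.310 in BEC (1.20 to 1.80), without overlap. This ratio was chosen after the values were seen and was not tested.

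Mesothelial cells also carry these keratins. The summed level of 8 mesothelial markers was between 3.56 and 7.18 CPM in early, 2.64 and 3.78 in intermediate, 30.1 and 45.3 in full and 225 and 249 in BEC. By these ranges the sum was not higher in intermediate than in early, and was higher in full and BEC. Of the 8, 5 were tested, of which 1 was higher and 1 lower at the first step, 3 and 0 at the second, and 2 and 0 between full and BEC. Of all genes tested, 28.7% were higher and 25.7% lower at the first step, 20.8% and 19.8% at the second, and 10.7% and 10.6% between full and BEC. Nearly all of the BEC sum was Msln (198 ± 13.2 CPM) and Gpm6a (41.5 ± 10.3 CPM) (SD, n = 3 each), which were higher in BEC than in early by 6.95 and 7.05 on the log2 scale (edgeR adjusted p 7.16e-11 and 4.58e-10). Wt1 was higher in full than in intermediate (3.09, SE 0.79, edgeR adjusted p 0.00632), and Lrrn4 was lower in BEC than in early (-4.26, SE 0.75, edgeR adjusted p 0.000161). In BEC, Upk3b had 0.683 CPM, Wt1 0.470, Muc16 0.172, Lrrn4 0.0925 and Upk1b 0.0778, and Bnc1 was at 0. The sum of 8 macrophage markers was between 23.6 and 25.1 CPM in early and between 132 and 151 in BEC, where Csf1r alone had 127 CPM. The part of either cell type in the keratin levels was not tested.

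Krt20 and Krt23 rose at the first step, before Krt7 and Krt19 had made their main rise, and their lowest levels outside early were in BEC. Krt20 had 0.0791, 1.36 and 2.99 CPM in early (1, 15 and 37 counts), 9.49, 14.1 and 11.2 in intermediate, 11.4, 8.25 and 7.43 in full, and 0.674, 1.26 and 1.46 in BEC. Intermediate and full overlapped with each other and lay above every early and BEC library, and the BEC values fell inside the wide early range. Krt23 had 2.37, 11.6 and 13.2 CPM in early, 88.4, 97.2 and 108 in intermediate, 86.1, 85.0 and 102 in full, and 56.8, 54.7 and 62.8 in BEC. Intermediate and full overlapped, and BEC lay below both and above early. Early replicate 1 was the lowest library for both genes.

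At the first step Krt20 rose by 2.97 on the log2 scale (SE 0.53, edgeR adjusted p 0.000338) and Krt23 by 3.44 (SE 0.35, edgeR adjusted p 2.22e-06). Without early replicate 3, the highest early library, the Krt20 value was 4.07. Without early replicate 1, the lowest, the values were 2.40 for Krt20 and 2.98 for Krt23. With total counts only they were 3.63 for Krt20 and 4.10 for Krt23, and all of these were called. Between intermediate and full neither was called (Krt20 -0.36, SE 0.43, edgeR adjusted p 0.546; Krt23 -0.11, SE 0.30, edgeR adjusted p 0.805). Krt20 stood 2.99 lower in BEC than in full (SE 0.51, edgeR adjusted p 0.000766) and 3.35 lower in BEC than in intermediate (SE 0.52, edgeR adjusted p 9.68e-05). Both calls held without each library in turn. BEC against early gave -0.38 for Krt20 (SE 0.61, edgeR adjusted p 0.597), a difference whose sign turned without early replicate 3 (0.72).

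For Krt23, BEC remained above early by 2.69 (SE 0.35, edgeR adjusted p 8.78e-06). Its log2 fold change from full to BEC of -0.65 missed the threshold (SE 0.30, edgeR adjusted p 0.164), although the 3 BEC libraries lay below the 3 full ones. Without early replicate 1 the same difference had an edgeR adjusted p of 0.000421, and with only the 6 libraries compared, 0.000546. Over the alternatives other than a minimum fold change the adjusted p went up to 0.440. BEC against intermediate was called at -0.75 (SE 0.30, edgeR adjusted p 0.0499), a value at the threshold that was lost in 10 of the 12 fits that each left out a library.

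**Figure D2:**
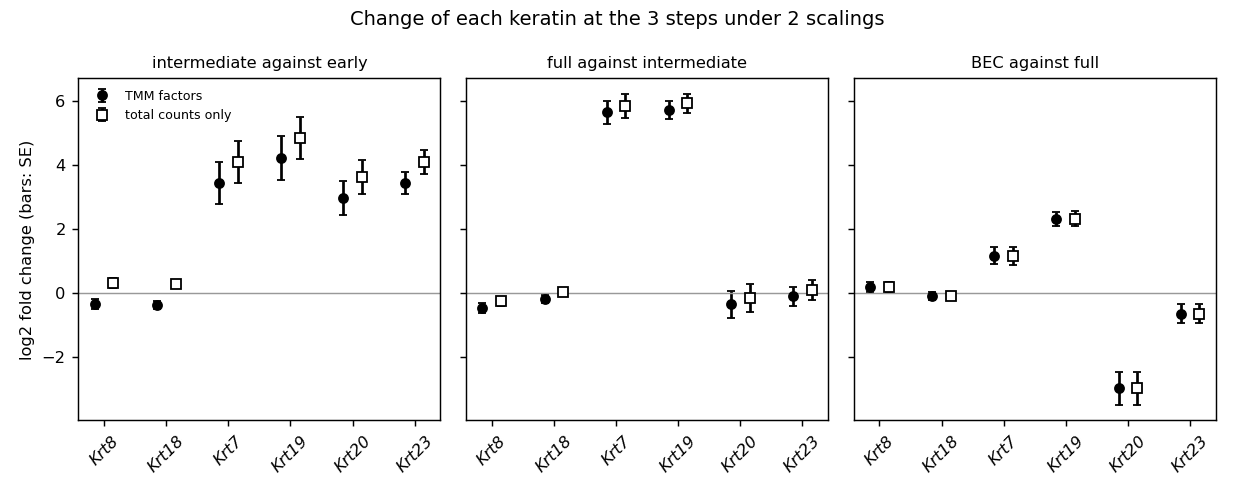
Log2 fold change of each keratin at the 3 steps, with filled circles for TMM factors, open squares for total counts only and bars for the SE. Krt8 and Krt18 change sign between the scalings in intermediate against early. Krt7 and Krt19 are positive in all 3 comparisons, and Krt20 has the lowest value in BEC against full (-2.99).

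Read against all 16210 genes tested, every one of the 6 keratins passed the filter on low counts. In intermediate against early, 4 keratins were higher and 1 lower, where 28.7% of all genes were called higher and 25.7% lower. In full against intermediate, 2 were higher and 1 lower, beside 20.8% and 19.8%. In BEC against full, 2 were higher and 1 lower, beside 10.7% and 10.6%. In BEC against early, 3 were higher and 2 lower, beside 40.0% and 33.0%. In full against early, 4 were higher and 2 lower, beside 39.1% and 32.1%. In BEC against intermediate, 2 were higher and 2 lower, beside 26.3% and 26.2%. With total counts only, the tallies became 4 and 0 in intermediate against early and 2 and 0 in full against intermediate. They were 2 and 1 in BEC against full and 3 and 0 in BEC against early. These comparisons share groups, so their counts do not add up as separate evidence. The keratins had a median log2 change of 3.21 at the first step against 0.06 for all genes, -0.14 at the second against 0.01, and 0.04 at the third against 0.00460. The small medians of the later steps join keratins that moved in opposite directions.

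Because the direction of Krt8 and Krt18 depended on scaling, ratios of counts within a library, which no scaling factor can change, were also compared. Each ratio was tested over the 4 groups by an exact permutation test of the F statistic on log2 ratios, with p adjusted over the 4 ratios. The Krt19 to Krt18 ratio was 0.00509% ± 0.00202 in early cells, 0.136% ± 0.0749 at the intermediate stage, 8.06% ± 1.56 in full cells and 42.9% ± 2.43 in BEC (SD, n = 3, exact permutation adjusted p 0.00013). The Krt7 to Krt8 ratio was 0.00838% ± 0.00123, 0.132% ± 0.108, 8.60% ± 2.49 and 17.1% ± 3.07 (SD, n = 3, exact permutation adjusted p 0.00013). For these ratios the unadjusted p was the smallest that the design allows, 6.49e-05. The Krt23 to Krt18 ratio was 0.422% ± 0.274, 5.88% ± 0.179, 6.17% ± 0.494 and 4.26% ± 0.524 (SD, n = 3, exact permutation adjusted p 0.000433). BEC lay below full in this ratio without overlap, as the levels of Krt23 did.

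The Krt18 to Krt8 ratio was highest in full, at 0.726 ± 0.0200 (range 0.703 to 0.738), against 0.610 ± 0.0558 in early, 0.597 ± 0.0408 in intermediate and 0.596 ± 0.0163 in resident biliary cells (SD, n = 3 each). The 3 full libraries lay above all 9 others, whose highest value was 0.654. Over the 4 groups the exact permutation p was 0.0183, also after adjustment. It rose to 0.0642 when labels were permuted within replicate numbers, to 0.0579 without full replicate 1 and to 0.0577 without full replicate 3. Each pair of groups with full in it gave 0.1 by exact permutation, the lower limit for 3 libraries on each side.

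**Figure D3:**
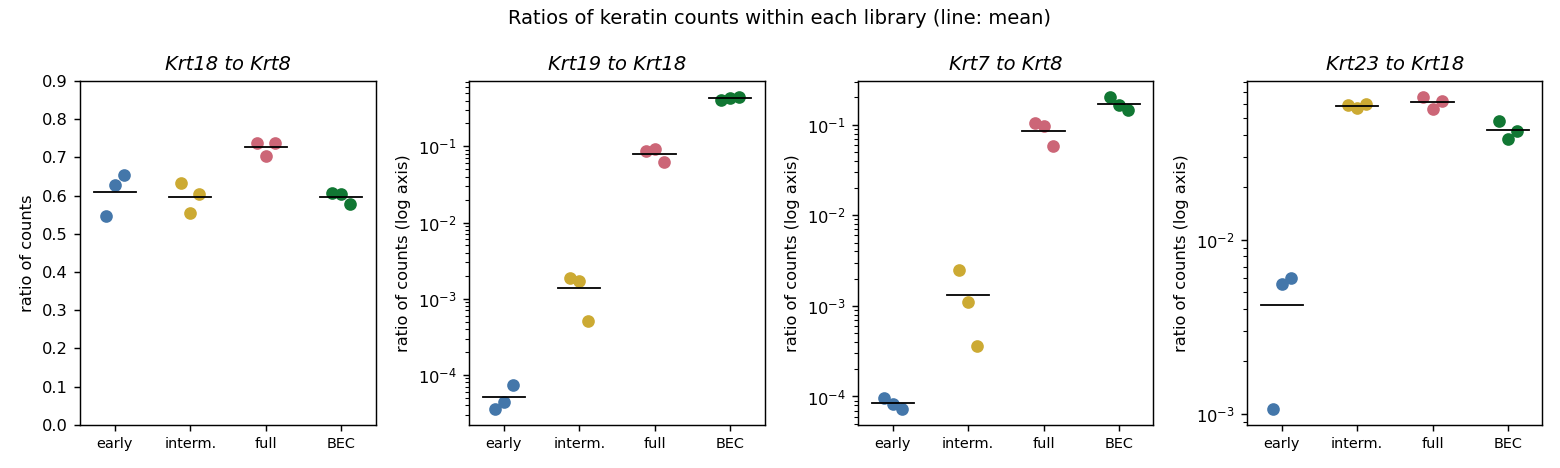
Ratio of counts between keratins within each library, on a linear axis from 0 for Krt18 to Krt8 and on log axes for the other 3 panels, with replicates as points and the mean as a line. The full libraries are the highest for Krt18 to Krt8 (0.703 to 0.738), and the ratios of Krt19 to Krt18 and Krt7 to Krt8 separate all 4 groups.

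To compare keratins with each other, counts were divided by the length of each gene's principal transcript in GENCODE M21. In early cells the levels per length were 1831 CPM per kb for Krt8, 1511 for Krt18, 5.79 for Krt23, 0.768 for Krt20, 0.0742 for Krt7 and 0.0702 for Krt19. In BEC the order was Krt8 (1182 CPM per kb), Krt18 (957), Krt19 (376), Krt7 (94.7), Krt23 (37.1) and Krt20 (0.587). The early values of Krt7 and Krt19 rest on 11 and 4 counts in all and were not ranked against each other. By group mean, Krt19 moved from below Krt8, Krt18, Krt23 and Krt20 in early to rank 3 in BEC, although Krt20 also had 1 count in early replicate 1.

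As shares of the 6 keratins per length, Krt8 made up 54.6% ± 2.39 in early, 53.7% ± 1.73 in intermediate, 46.2% ± 0.721 in full and 44.6% ± 0.609 in resident biliary cells (SD, n = 3). Krt18 made up 45.2% ± 2.25, 43.6% ± 1.60, 45.7% ± 0.958 and 36.2% ± 0.507, and its share in every BEC library lay below that in all others. Krt19 made up 3.35% ± 0.588 in full and 14.1% ± 0.659 in BEC, and Krt7 1.90% ± 0.537 and 3.63% ± 0.614 (SD, n = 3). Krt23 held 2.36% in intermediate and 2.59% in full, a higher mean than that of Krt7 in either, and 1.42% in BEC. In full this order rests on the division by length, since before it Krt7 had a mean of 172 CPM and Krt23 of 90.9. Among type I keratins, 27.3% ± 1.20 were Krt19 in BEC, and among type II keratins 7.53% ± 1.25 were Krt7 (SD, n = 3). These last values depend on the gene model. Krt19 has a principal transcript of 1576 bases and 1855 bases over all its exons, and Krt7 has 4094 and 7049. With the lengths over all exons the values became 24.2% for Krt19 and 4.52% for Krt7.

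Type I keratins together made up 45.4% ± 2.39 of the 6 in early, 46.3% ± 1.72 in intermediate, 51.9% ± 0.699 in full and 51.8% ± 0.364 in resident biliary cells (SD, n = 3, exact permutation p 0.00403 over the 4 groups). Early and intermediate overlapped, as did full and BEC, and the pairs did not overlap with each other. The type I share of full included the higher Krt18 to Krt8 ratio, and that of BEC the larger share of Krt19. This test was added after the values were seen.

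**Figure D4:**
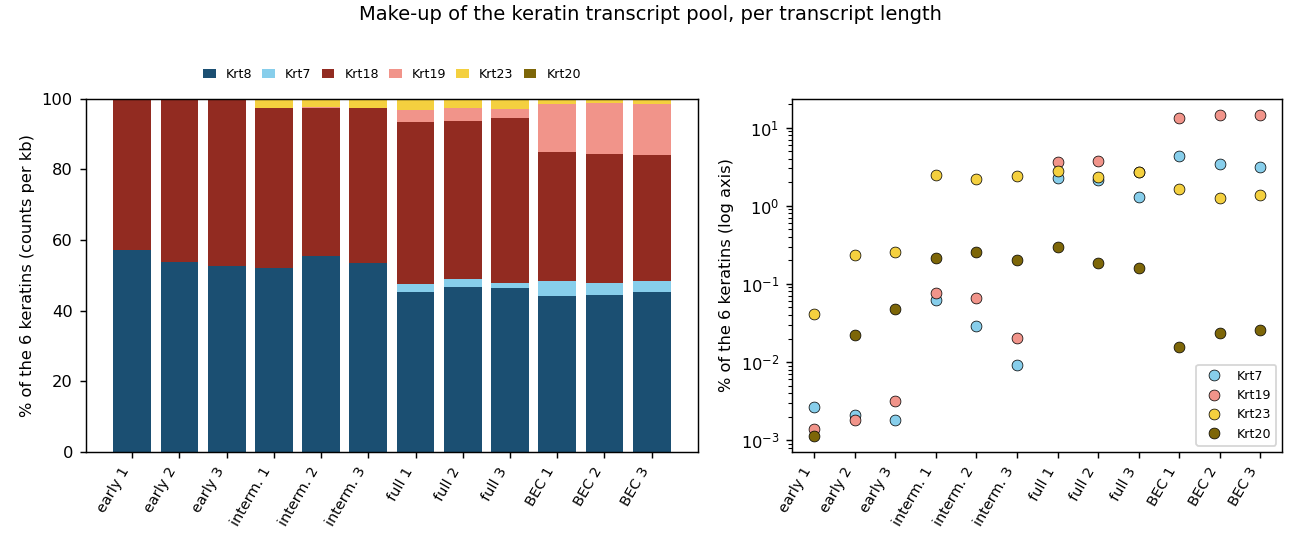
Make-up of the keratin transcripts in each library as a percentage of the 6 keratins, in counts per kb of transcript. The left panel stacks all 6 from 0 to 100%, with the type II keratins at the bottom, and the right panel shows the 4 less abundant ones on a log axis; Krt19 reaches 14.1% in BEC on average, and Krt20 stays under 0.3% in all 12 libraries.

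Across the 12 libraries, Krt7 and Krt19 had a Pearson correlation of log2 CPM of 0.994, Krt8 and Krt18 of 0.922, and Krt20 and Krt23 of 0.783, which describes libraries that share their groups and depth. Among all genes tested, the 3 most like Krt7 were P2rx2 (r = 0.997), Spint1 (0.997) and Inha (0.995). Those most like Krt19 were Epn3 (0.998), Spint1 (0.997) and Gm43845 (0.995). For Krt8 they were Tyk2 (0.981), Eif1 (0.962) and Kdm5c (0.958), and for Krt18 Gstm2 (0.982), Tmem143 (0.980) and Nagpa (0.975). For Krt20 they were Ttl (0.968), Extl3 (0.960) and Npr3 (0.943), and for Krt23 Tmem44 (0.981), Papln (0.980) and Epc1 (0.978).

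Of 49 further rows with keratin symbols, 25 had no counts and 6 reached a mean of 1 CPM in any group. Krt17, a keratin of basal and injured epithelium, rose from 0.243 ± 0.152 to 3.25 ± 0.985 CPM at the first step (SD, n = 3, edgeR adjusted p 0.000628), had 5.56 ± 2.84 in full and rose to 17.5 ± 7.27 in BEC (edgeR adjusted p 0.00838 against full). Krt80 rose from 0.137 ± 0.0703 CPM in intermediate to 7.06 ± 1.42 in full (SD, n = 3, edgeR adjusted p 1.75e-07) and had 11.4 ± 1.71 in BEC. Krt87 had no counts in early or intermediate and was at least 7.37-fold higher in full, against a floor of 3 counts per library. Krt5, the basal cell keratin, fell from 1.76 CPM in early to 0.598 in intermediate and 0.101 in full (edgeR adjusted p 0.00902 and 0.00347), and scaling by total counts ended the first of these calls (edgeR adjusted p 0.0878). Krt10 stayed between 1.94 and 2.17 CPM in the group means, and the sixth row was the pseudogene Krt8-ps. Of a list of 21 stratified and basal keratins, 4 were tested, of which 1 was higher and 1 lower at the first step, 1 and 1 at the second, and 1 and 0 at the third. The shares over all genes were 28.7% higher and 25.7% lower at the first step, 20.8% and 19.8% at the second, and 10.7% and 10.6% at the third, so that 1 of 4 genes in a direction was near these shares at the first and second step. Scaling by total counts gave 2 higher and 0 lower at the first step and the same tallies at the others.

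Of 15 other intermediate filament genes, 10 were tested. At the first step 6 were higher and 0 lower, at the second 5 and 1, and between full and BEC 0 and 3, with medians of 0.995, 0.65 and -0.03 (log2). Over all genes 28.7% were higher and 25.7% lower at the first step, 20.8% and 19.8% at the second, and 10.7% and 10.6% between full and BEC. Scaling by total counts gave 8 and 0, 6 and 0, and 0 and 3. Vim, which encodes the filament protein vimentin of mesenchymal cells, had 30.6, 26.7 and 27.1 CPM in early, 332, 289 and 243 in intermediate, 266, 223 and 248 in full and 8.77, 13.7 and 10.4 in BEC. The intermediate and full libraries overlapped and lay above all others. Vim rose by 3.35 at the first step (SE 0.16, edgeR adjusted p 2.44e-09) and fell by 4.49 from full to BEC (SE 0.17, edgeR adjusted p 4.05e-09). It was also lower in BEC than in early (-1.36, SE 0.16, edgeR adjusted p 3.41e-06), and with scaling by total counts the value was -0.49 (edgeR adjusted p 0.0115). Nes, which encodes nestin, a filament protein of progenitor cells, was highest in full, at 42.9 ± 1.22 CPM, against 11.3 ± 4.08 in intermediate and 12.8 ± 3.49 in BEC (SD, n = 3, edgeR adjusted p 6.35e-05 and 0.000269). The nuclear lamin genes Lmnb1 and Lmnb2 were higher in BEC than in early by 2.56 (SE 0.28, edgeR adjusted p 1.63e-06) and 0.64 (SE 0.19, edgeR adjusted p 0.00791). Markers of stellate cells and fibroblasts, which also carry Vim, summed to between 102 and 296 CPM in early, 58.2 and 174 in intermediate, 44.8 and 80.4 in full and 57.4 and 98.2 in BEC. Full and BEC overlapped in this sum, and the part of these cells in the Vim levels was not tested.

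Keratin filaments are anchored to desmosomes by plakins and plakophilins. Of 18 linker and desmosome genes 17 were tested. At the first step 9 were higher and 2 lower, at the second 8 and 2, and between full and BEC 5 and 3, with medians of 0.48, 0.26 and 0.10 (log2). The shares over all genes were 28.7% and 25.7%, 20.8% and 19.8%, and 10.7% and 10.6%. Setting genes without counts in the reference group to their bound left the medians of this and the preceding list unchanged. With total counts only, the tallies became 14 and 2, 10 and 2, and 5 and 3. Pof1b, an actin-binding protein of epithelial junctions, had no counts in early or intermediate, was at least 28.6-fold higher in full (4.99 ± 1.03 CPM), against a floor of 3 counts per library, and rose to 39.3 ± 9.65 in BEC (SD, n = 3, edgeR adjusted p 1.42e-05). Pkp3, a plakophilin, had 3.50 and 3.91 CPM in early and intermediate and rose to 18.5 ± 3.88 in full and 72.6 ± 3.42 in BEC (SD, n = 3, edgeR adjusted p 4.71e-07 and 8.76e-07). Like Krt7 and Krt19, Pkp3 was higher in full than in intermediate and higher in BEC than in full. Evpl, the plakin envoplakin, rose at the first step (1.86, SE 0.20, edgeR adjusted p 3.98e-06) and at the second (0.93, SE 0.18, edgeR adjusted p 0.000811). Fbf1, which encodes a keratin-binding protein, rose at all 3 (0.98, 0.34 and 0.33, edgeR adjusted p 4.72e-06, 0.0190 and 0.0370).

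**Figure D5:**
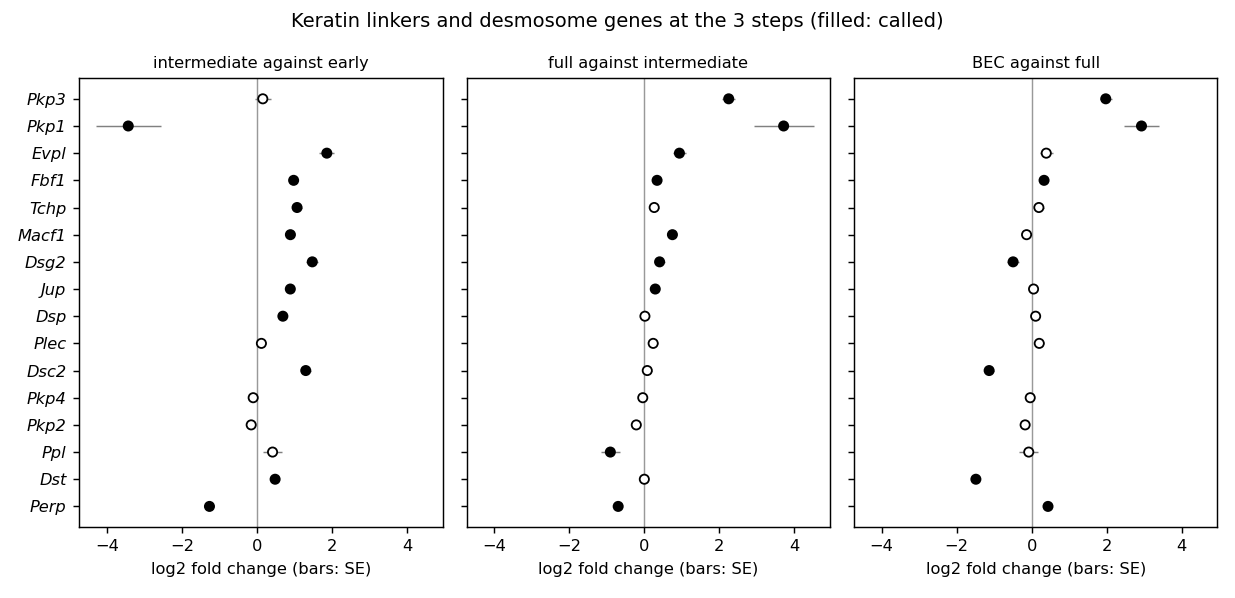
Log2 fold change at the 3 steps for 16 of the 17 tested linker and desmosome genes on the TMM scale, with bars for the SE and filled symbols for edgeR adjusted p under 0.05. Pof1b, without counts in early and intermediate, is left out; Pkp3 and Pkp1 rise at both later steps, while Dsc2 and Dst fall from full to BEC.

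Of 12 genes for components of Mallory-Denk inclusions, 4 were higher and 3 lower at the first step, 1 and 5 at the second, and 1 and 2 between full and BEC, with medians of -0.06, -0.29 and -0.18 (log2). Over all genes the shares were 28.7% and 25.7%, 20.8% and 19.8%, and 10.7% and 10.6%, so that the tallies at the first step were close to those of all genes. With total counts only, the tallies became 7 and 0, 2 and 1, and 1 and 2. That scaling moved all genes alike, taking the share of calls that were higher from 52.8% to 85.6% over all genes at the first step and from 51.2% to 72.6% at the second. Sqstm1, the inclusion protein p62, fell from 1353 ± 472 CPM in early to 726 ± 93.4 in intermediate and 495 ± 21.9 in full (SD, n = 3, edgeR adjusted p 0.00111 and 0.0300), and scaling by total counts ended both calls (edgeR adjusted p 0.278 and 0.133). Ubd, a ubiquitin-like modifier, fell from 126 ± 6.71 CPM in intermediate to 39.8 ± 7.51 in full and 16.3 ± 3.56 in BEC (SD, n = 3, edgeR adjusted p 1.82e-06 and 4.79e-05). The small heat shock gene Cryab rose at every step, from 1.07 to 8.93, 50.5 and 82.0 CPM (edgeR adjusted p 2.20e-09, 4.06e-09 and 5.75e-05). The chaperone gene Hspa1a rose from 3.77 to 39.5 CPM at the first step (edgeR adjusted p 5.23e-07) and had 36.2 and 32.5 CPM in full and BEC.

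Of 9 genes for transcription factors known to act on keratin genes, 6 were tested, of which 4 were higher at the first step, 2 at the second and 2 at the third, with none lower and medians of 0.80, 0.01 and 0.17 (log2). Of all genes, 28.7%, 20.8% and 10.7% were higher at these steps, and with 6 genes the 2 at the second step were near that share. Scaling by total counts gave 6 higher and 0 lower at the first step and the same tallies at the others. Klf5, a Krüppel-like factor of simple epithelia, had 0.0527 ± 0.0913 CPM in early, 3.59 ± 2.99 in intermediate, 45.3 ± 5.31 in full and 134 ± 16.8 in resident biliary cells (SD, n = 3). It rose at each step (edgeR adjusted p 0.000206, 2.72e-06 and 0.00144). Klf4 rose at the first step (1.09, SE 0.30, edgeR adjusted p 0.00667) and from full to BEC (0.91, SE 0.26, edgeR adjusted p 0.0238). Ets2 and Sp1, the factor that binds GC boxes, rose at the first step by 0.96 (SE 0.13, edgeR adjusted p 2.36e-05) and 0.64 (SE 0.10, edgeR adjusted p 9.82e-05).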

How the data were processed

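RNA from 12 libraries of sorted mouse liver cells, 3 in each of 4 groups taken from the labels, was sequenced. Per the labels' protocols, RNA was isolated with a Nucleospin kit and libraries were prepared by a service provider. The submitters' processing notes name STAR 2.7.10b, featureCounts 2.0.1, DESeq2 and the build GRCm39. The annotation, strandedness and handling of reads that match several genes are not given in the sources used here, so overlapping or near-identical genes are uncertain. The authors deposited unnormalized read counts by gene symbol, from which all values here were computed. They also deposited a signal table in which each sample's counts are divided by its size factor. It served only as an alternative input to the ratio tests, and no value printed here was taken from it.

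Counts were analysed in R 4.3.3 with edgeR 4.0.16 and limma 3.58.1. Genes were kept by filterByExpr (16210 of 53599) and scaled by TMM factors, which were 0.652 to 0.672 in early and 1.03 to 1.22 in the other groups. A single model with group terms was fitted to the 12 libraries, and edgeR's quasi-likelihood test compared groups pairwise. A gene was called when its adjusted p (Benjamini-Hochberg, all 16210 genes) was under 0.05. Log2 CPM used a prior count of 2. Ratios used log2 of counts plus 1 and an exact permutation test over all 15400 allocations of libraries to groups (Python 3.11.15, scipy 1.17.1). Transcript lengths came from GENCODE M21, a GRCm38 annotation, used for lengths only. Floors and counting intervals cover counting error only, since PCR copies are not independent molecules. The fits were tested on simulated counts.

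Named genes were the 6 keratins and other keratins with a mean of at least 1 CPM in a group. The 3 genes most correlated with each keratin were also named. Per list other than the cell type markers, up to 4 called genes were named that reached 10 CPM and changed most between BEC and early. Cell type markers, the overlapping gene Gm36026 and, in a figure caption, Pkp1, Dsc2 and Dst were named outside this rule. The keratins, the lists and the comparisons were chosen with earlier results of these data known. Alternatives were DESeq2 1.42.0, other scaling, other filters, a replicate block, a test against a minimum 2-fold change, and fits of 6 libraries or without each library. Full against early, BEC against intermediate and the alternative transcript lengths were added after the data were seen.

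Replicates of a group differed beyond counting error (chi-square per degree of freedom 5.34 to 58.2). The labels number them 1 to 3. Across genes, the residuals of same-numbered libraries around their group means had r of 0.121 to 0.293 for intermediate and early, 0.137 to 0.322 for full and intermediate, and 0.170 to 0.257 for BEC and full, so the numbers pair libraries there. In the other comparisons at least 1 pair was under 0.1. What the numbers mark is not stated.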

Additional observations from a re-analysis of the deposited data

How the results depend on the processing

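Of 288 values (6 keratins, 6 comparisons and 8 alternatives that kept all replicates), 258 kept their direction and side of the threshold, 14 lost a call, 7 gained one and 9 reversed. All 9 reversals came with total counts only: intermediate against early, Krt8 0.31 and Krt18 0.28; full against intermediate, Krt18 0.028 and Krt23 0.093; BEC against early, Krt8 0.24, Krt18 0.21 and Krt20 0.48; full against early, Krt8 0.052 and Krt18 0.31. Beyond the shift of the median gene, the cause was not tested. Of 432 values without 1 library each, 415 kept direction and side, 14 lost a call, 2 gained one and Krt20 in BEC against early ranged from -0.95 to 0.72, the latter a reversal without early replicate 3. The number of keratins called in BEC against early was 3 with total counts only and 3 with a minimum 2-fold change, against 5. Krt7, Krt19, Krt20 and Krt23 kept their calls at the first step, and Krt7 and Krt19 at the second, in all 20 alternatives.

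With the replicate block, Krt8 in intermediate against early (-0.37, edgeR adjusted p 0.0303) and Krt18 in BEC against intermediate (-0.28, edgeR adjusted p 0.0241) were gained, and no other keratin call changed. Under that pairing the exact permutation test of the log2 ratio of Krt18 to Krt8 over the 4 groups gave an adjusted p of 0.0642. The spread between its highest and lowest group mean was 0.29, and without 1 library each that spread ranged from 0.26 to 0.31, with losses named in the report. Early levels of Krt7 and Krt19 rest on 1 to 5 counts per library, so their folds against early have wide counting intervals. These intervals leave out the spread between replicates.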
